A study of Mus musculus with 9 samples.

Results

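The interferon-stimulated genes described here are 47 mouse genes, picked by symbol as known targets of interferon and found in a table of 57010 Ensembl gene identifiers measured in mouse lung. They comprise 4 IFIT genes, 2 genes of the ISG15 system, 6 OAS genes, 2 Mx genes, 4 transcription factors, 3 sensors of viral RNA, 6 guanylate-binding proteins (GBP), 7 immunity-related GTPases (IRG) and 13 other effectors. All 47 passed the filter on low values, which kept 15487 genes. The 9 lungs came from C57BL/6J mice, a common inbred strain, with 3 mice in each of 3 groups. The CuO_TTM group received copper oxide nanoparticles in the trachea, 100 µl at 2 mg/mL, and TTM in the drinking water at 0.02 mg/mL. The CuO group received the same single dose of particles without TTM. The control group was given saline, 100 µl, and no particles. The labels do not spell out TTM and do not give the age of the mice. Day 7 was the day of sampling for all mice, and 1 library was made per mouse. Values are TPM, a transcript level corrected for transcript length and scaled to a common total per library. Sequencing depth is not known from such values.

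Interferons are secreted signals, and cells can release those of type I and type III on sensing viral or bacterial nucleic acid. Type I and type III interferons act chiefly through a complex that contains Stat2 and Irf9 and binds the interferon-stimulated response element (ISRE) in promoters of antiviral genes such as the IFIT, OAS and Mx genes. Interferon gamma, made mainly by natural killer cells and T cells, acts on gamma-activated sites (GAS), and the GBP and IRG genes are among its strongest targets. In the lung these genes are known for their part in defence against respiratory viruses and intracellular bacteria.

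Promoter sequences show the elements that these genes share, from 250 bases before to 50 after the start site. RefSeq sequences of the build GRCm38.p6 were found for 35 of the 47 genes. In the lines that follow, capitals mark letters that match the ISRE search (GAAANNGAAA) or the GAS search (TTCNNNGAA) on either strand, where N is any base. Ifit1 (IFIT family, chr19:34640639-34640938 (plus strand)), Isg15 (chr4:156200769-156201068 (minus strand)) and Rsad2 (chr12:26456403-26456702 (minus strand)) stand for the antiviral genes. Gbp2 (chr3:142620413-142620712 (plus strand)) stands for the GBP genes. Igtp (chr11:58199306-58199605 (plus strand)) and Tgtp2 (chr11:49064163-49064462 (minus strand)) stand for the IRG genes, and Irf1 (chr11:53769764-53770063 (plus strand)) for a gene with a GAS match alone.
Ifit1: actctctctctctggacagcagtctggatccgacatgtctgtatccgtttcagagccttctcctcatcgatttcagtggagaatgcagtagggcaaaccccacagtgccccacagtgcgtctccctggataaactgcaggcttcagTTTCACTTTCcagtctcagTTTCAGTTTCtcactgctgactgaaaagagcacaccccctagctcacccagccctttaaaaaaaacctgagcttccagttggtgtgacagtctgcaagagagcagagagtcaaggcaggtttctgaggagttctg
Isg15: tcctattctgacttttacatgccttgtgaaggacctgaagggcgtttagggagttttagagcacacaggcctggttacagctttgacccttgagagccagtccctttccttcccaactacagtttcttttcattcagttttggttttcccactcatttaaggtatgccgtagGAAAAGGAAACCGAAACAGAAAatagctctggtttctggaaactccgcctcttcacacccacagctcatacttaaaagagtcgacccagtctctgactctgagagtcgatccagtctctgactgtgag
Rsad2: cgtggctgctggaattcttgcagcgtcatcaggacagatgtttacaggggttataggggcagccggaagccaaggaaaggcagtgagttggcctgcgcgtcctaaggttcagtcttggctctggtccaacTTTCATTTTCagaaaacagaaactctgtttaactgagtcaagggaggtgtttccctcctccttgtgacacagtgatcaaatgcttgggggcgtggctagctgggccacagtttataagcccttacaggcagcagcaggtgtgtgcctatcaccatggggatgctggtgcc
Gbp2: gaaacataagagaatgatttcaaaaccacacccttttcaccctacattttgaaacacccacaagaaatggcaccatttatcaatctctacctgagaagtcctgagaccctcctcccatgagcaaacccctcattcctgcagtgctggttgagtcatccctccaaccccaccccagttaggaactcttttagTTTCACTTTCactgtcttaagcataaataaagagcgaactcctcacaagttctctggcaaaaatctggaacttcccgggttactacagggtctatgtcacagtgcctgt
Igtp: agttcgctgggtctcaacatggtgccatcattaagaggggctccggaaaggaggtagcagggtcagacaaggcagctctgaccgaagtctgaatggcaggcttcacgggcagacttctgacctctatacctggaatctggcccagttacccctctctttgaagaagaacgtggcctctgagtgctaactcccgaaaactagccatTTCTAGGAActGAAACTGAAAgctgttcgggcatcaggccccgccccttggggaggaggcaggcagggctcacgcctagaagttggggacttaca
Tgtp2: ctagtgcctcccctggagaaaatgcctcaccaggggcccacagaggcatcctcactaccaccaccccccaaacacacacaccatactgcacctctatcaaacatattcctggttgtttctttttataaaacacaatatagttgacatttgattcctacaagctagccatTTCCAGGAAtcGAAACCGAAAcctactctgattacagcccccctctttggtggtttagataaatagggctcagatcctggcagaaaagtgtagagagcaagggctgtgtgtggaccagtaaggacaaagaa
Irf1: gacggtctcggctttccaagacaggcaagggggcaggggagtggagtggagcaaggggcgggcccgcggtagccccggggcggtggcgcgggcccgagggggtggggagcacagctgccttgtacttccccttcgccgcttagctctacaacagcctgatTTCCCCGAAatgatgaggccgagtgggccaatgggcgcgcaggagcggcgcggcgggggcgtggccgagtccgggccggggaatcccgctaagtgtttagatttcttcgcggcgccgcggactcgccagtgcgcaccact

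The ISRE letters were present in the promoters of 23 of the 35 genes (65.7%), against 1079 of 27025 genes in the whole promoter table (3.99%). At least 2 such matches stood in 9 of the 35 promoters (25.7%), against 72 of 27025 (0.266%). The matches lie apart in Ifit1, Ifit3 and its close copy Ifit3b, as at -104 to -95 and -85 to -76 from the start site in Ifit1. In the others, Gbp3, Isg15, Oas1a, Oas1g, Irgm1 and Bst2, they overlap each other, as the 3 matches of Isg15 do. The GAS letters were present in 13 of the 35 genes (37.1%), against 2582 of 27025 (9.55%). By family, the ISRE was found in 3 of 4 IFIT, 3 of 5 OAS, 4 of 4 GBP and 5 of 6 IRG promoters, and the GAS in 1 of 4 IFIT, 1 of 5 OAS, 2 of 4 GBP and 4 of 6 IRG promoters. In Igtp, Irgm2, Tgtp1 and Tgtp2 a GAS match was followed after 2 bases by an ISRE match, as the lines for Igtp and Tgtp2 show. That arrangement, looked for after it was seen in these promoters, occurred in 5 of the 27025 genes (0.0185%), and the fifth is Gm12185. Tgtp1 and Tgtp2 are near copies of each other, and the windows of Igtp and Irgm2 are alike over most of their length. The promoters within each pair are therefore not separate cases. The matches describe letters in a window and say nothing of binding.

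Typical lung markers were detected in every library, from the surfactant gene Sftpc (17957 to 76791 TPM) to the ciliated cell gene Foxj1 (0.87 to 28.1 TPM). The number of genes at 1 TPM or more ran from 13923 to 14969 per library. CuO replicate 1 stood apart. It had the fewest such genes, and it was the lowest of its group for 70.9% of all tested genes. The differences that involve CuO lungs and the spread within groups are therefore also given without it for the 47 genes together. The club cell gene Scgb1a1 took between 0.180% and 22.5% of all TPM, which by construction lowers the other values of a library where it is high.

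In no comparison did any of the 47 genes pass the test, limma on log2(TPM + 1) with Benjamini-Hochberg adjusted p-values over all 15487 genes at 0.05. In CuO_TTM against CuO lungs the count was 0 of 47, where 0.710% of all genes passed. In CuO_TTM against control lungs it was 0 of 47, where 1.90% passed, and in CuO against control lungs 0 of 47, where 0% passed. At an unadjusted p under 0.05 the counts were 1, 0 and 0 of 47 in the same order, against backgrounds of 7.75%, 18.0% and 7.95%. The groups did not overlap for 0 of 47 genes in each comparison, against 11.8% of all genes in CuO_TTM against CuO, 36.8% in CuO_TTM against control and 12.9% in CuO against control.

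What these genes did show was a large spread between mice of the same group, in which nearly all of them moved together. CuO_TTM replicate 1 was the highest of its group for 47 of 47 genes, CuO replicate 1 the lowest of its group for 47 of 47, and control replicate 3 the highest of its group for 47 of 47. Among all tested genes the same libraries held those places for 26.5%, 70.9% and 30.4%. CuO replicate 2 was the highest of its group for 42 genes and CuO replicate 3 for the other 5. Each gene's log2(TPM + 1) was set against its own mean over the 9 libraries, and the median deviation of the 47 genes was taken in each library. It was 1.36, -0.76 and -1.17 in CuO_TTM replicates 1 to 3, -1.95, 1.57 and 1.00 in CuO replicates 1 to 3, and -0.52, -0.54 and 1.00 in control replicates 1 to 3. Each group thus held libraries both above and below the mean. In whole lung, fewer cells of a type and less RNA per cell cannot be told apart.

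**Figure D1:**
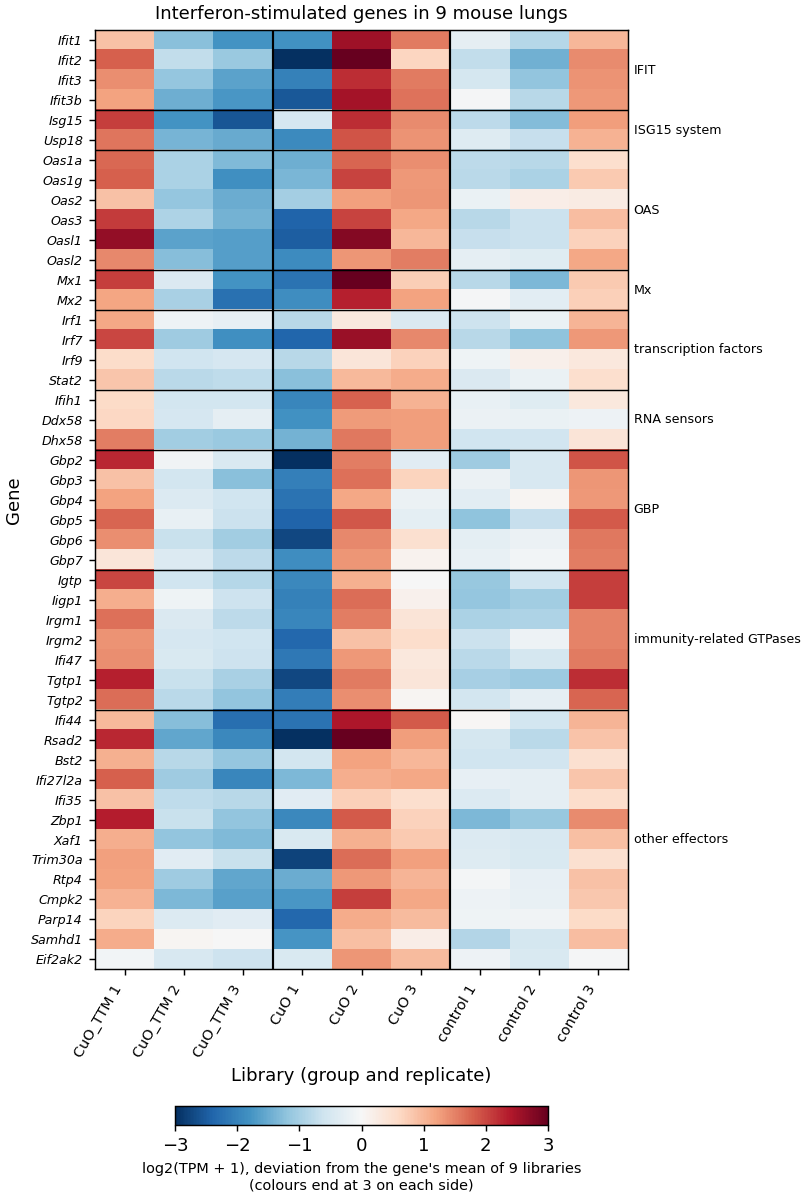
Each row is a gene, grouped by family, and each column a library, with CuO_TTM, CuO and control from left to right. Colour gives the deviation of log2(TPM + 1) from the gene's mean over 9 libraries, and CuO_TTM replicate 1, CuO replicates 2 and 3 and control replicate 3 are red for most genes, while CuO replicate 1 is blue for all 47.

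The interferon genes themselves were near the limit of detection in most lungs. The 18 type I interferon genes of the list together reached 1.56, 0.24 and 0 TPM in CuO_TTM lungs, 0.41, 13.1 and 0.22 TPM in CuO lungs, and 0.10, 0.07 and 0.75 TPM in control lungs. None of these 18 passed the filter on low values, so none was tested. CuO replicate 2 was thus far above the other 8 libraries, with 11 of the 18 genes above 0. Sequence shared between the 18 genes was not measured. Reads could be divided among them, so the 11 need not be separate detections. Ifnb1, the gene of interferon beta, was listed at 1.15, 0.13 and 0 TPM in CuO_TTM lungs, 0, 7.20 and 0.13 TPM in CuO lungs, and 0, 0 and 0.58 TPM in control lungs. Its highest library in each group was also the highest for most of the 47 genes. Both type III interferon genes, Ifnl2 and Ifnl3, summed to 0.26 TPM in CuO_TTM replicate 1, 3.82 TPM in CuO replicate 2 and 0.18 TPM in control replicate 3, and were listed at 0 in the other 6 libraries.

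Ifng, the gene of interferon gamma, was measured at 21.6, 11.9 and 6.96 TPM in CuO_TTM lungs, 0.71, 7.85 and 0.88 TPM in CuO lungs, and 3.03, 1.67 and 20.0 TPM in control lungs. CuO replicate 2 and control replicate 3 lay within the range of the CuO_TTM values, and the other 4 libraries lay below it. CuO_TTM minus CuO was 2.12 on the log2 scale (limma adjusted p = 0.534), CuO_TTM minus control 1.12 (adjusted p = 0.534) and CuO minus control -0.997 (adjusted p = 0.925).

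The receptors varied much less. Ifnar1, a chain of the type I interferon receptor, stood at 36.6, 43.7 and 49.7 TPM in CuO_TTM lungs, 21.6, 43.7 and 40.3 TPM in CuO lungs, and 24.6, 33.7 and 21.7 TPM in control lungs. Ifnar2, its partner chain, stood at 136, 102 and 73.4 TPM in CuO_TTM lungs, 66.0, 93.1 and 80.9 TPM in CuO lungs, and 45.1, 57.8 and 96.8 TPM in control lungs. Ifngr1, the ligand-binding chain of the interferon gamma receptor, stood at 145, 172 and 166 TPM in CuO_TTM lungs, 95.1, 123 and 148 TPM in CuO lungs, and 113, 155 and 162 TPM in control lungs. In CuO_TTM lungs replicate 1, the highest for all 47 genes, was thus the lowest for Ifnar1 and Ifngr1 and the highest for Ifnar2. Ifngr2, the second chain of that receptor, stood at 34.6, 45.0 and 36.1 TPM in CuO_TTM lungs, 30.7, 49.1 and 36.1 TPM in CuO lungs, and 23.1, 26.5 and 24.6 TPM in control lungs. Il10rb, which the type III receptor shares with the receptor of interleukin 10, stood at 101, 101 and 84.1 TPM in CuO_TTM lungs, 85.6, 96.2 and 90.6 TPM in CuO lungs, and 53.8, 61.9 and 65.8 TPM in control lungs. For both Ifngr2 and Il10rb the 3 control libraries lay below all 6 libraries of mice given particles. Among all tested genes 36.8% had no overlap in CuO_TTM against control and 12.9% in CuO against control. Ifnlr1, the specific chain of the type III receptor, ranged from 2.45 to 5.45 TPM. None of the 6 receptor genes passed the test in any comparison, and their smallest adjusted p was 0.142, for Il10rb in CuO_TTM against control.

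Genes of signalling below the receptors did not all share the order of the 47 genes. Jak1, a kinase bound to the receptors, stood at 75.02, 81.9 and 103 TPM in CuO_TTM lungs, 17.5, 85.4 and 83.4 TPM in CuO lungs, and 67.9, 78.1 and 52.0 TPM in control lungs. Ptpn6, a phosphatase that restrains cytokine signalling, stood at 119, 77.3 and 62.9 TPM in CuO_TTM lungs, 29.8, 74.7 and 54.3 TPM in CuO lungs, and 28.7, 41.0 and 42.9 TPM in control lungs. Stat3, which serves other cytokines, stood at 96.2, 79.1 and 102 TPM in CuO_TTM lungs, 28.2, 79.7 and 79.5 TPM in CuO lungs, and 49.6, 67.7 and 71.3 TPM in control lungs. None of the 11 genes of the JAK-STAT list passed the test in any comparison.

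The transcription factors among the 47 genes split by spread. Irf7, the main amplifier of type I interferon production, stood at 528, 62.0 and 36.1 TPM in CuO_TTM lungs, 24.4, 801 and 359 TPM in CuO lungs, and 73.8, 56.4 and 325 TPM in control lungs. Within every group its highest library exceeded its lowest by at least 5.77 times. Irf1, which drives part of the interferon gamma response, stood at 284, 113 and 106 TPM in CuO_TTM lungs, 69.8, 155 and 93.5 TPM in CuO lungs, and 81.4, 110 and 255 TPM in control lungs. CuO minus control was -0.39 for Irf1 (95% interval -1.55 to 0.78, limma adjusted p = 0.990) and 0.80 for Irf7 (-2.24 to 3.83, adjusted p = 0.995). Irf9 and Stat2, which are parts of the antiviral complex, spread less than Irf7. Irf9 ran from 32.1 to 93.6 TPM over all libraries, the smallest range of the 47 genes at 2.92 times, and Stat2 from 19.1 to 103 TPM.

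The sensors of viral RNA detect it in the cytoplasm and start interferon production. Ddx58, the gene of RIG-I, stood at 71.7, 32.0 and 37.8 TPM in CuO_TTM lungs, 12.3, 112 and 111 TPM in CuO lungs, and 40.4, 39.9 and 41.0 TPM in control lungs. Its 3 control libraries differed by 1.03 times at most, while its CuO libraries differed by 9.14 times. Ifih1, the gene of MDA5, stood at 38.5, 17.2 and 17.2 TPM in CuO_TTM lungs, 5.83, 89.6 and 53.7 TPM in CuO lungs, and 22.0, 19.8 and 32.0 TPM in control lungs. Dhx58, the gene of their regulator LGP2, stood at 58.6, 9.02 and 8.53 TPM in CuO_TTM lungs, 6.72, 61.1 and 48.7 TPM in CuO lungs, and 12.7, 12.9 and 25.9 TPM in control lungs. For all 3 genes CuO replicate 1 was the lowest of the 9 libraries.

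The IFIT proteins bind viral RNA and block its translation. Ifit3 stood at 780, 131 and 97.7 TPM in CuO_TTM lungs, 71.9, 1378 and 882 TPM in CuO lungs, and 205, 130 and 756 TPM in control lungs. Its group means were 336 ± 384, 778 ± 659 and 364 ± 342 TPM for CuO_TTM, CuO and control (SD, n = 3 each), so that each SD was close to its mean. Ifit1 stood at 99.5, 22.2 and 14.9 TPM in CuO_TTM lungs, 14.6, 320 and 161 TPM in CuO lungs, and 45.0, 29.7 and 109 TPM in control lungs. Ifit3b, a close copy of Ifit3, stood at 128, 19.4 and 15.8 TPM in CuO_TTM lungs, 8.65, 315 and 172 TPM in CuO lungs, and 53.4, 30.4 and 136 TPM in control lungs. In each of these genes the lowest and the highest of the 9 libraries were both CuO lungs. Ifit2 had the same extremes, at 4.46 and 388 TPM. Ifit3 and Ifit3b share 51.2% and 45.0% of their 50-base stretches with other genes, so reads could be divided between them.

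Isg15 encodes a ubiquitin-like protein that is joined to other proteins, and Usp18 the protease that removes it. Isg15 stood at 1065, 72.4 and 41.9 TPM in CuO_TTM lungs, 180, 1174 and 679 TPM in CuO lungs, and 147, 103 and 611 TPM in control lungs. Usp18 stood at 190, 23.0 and 21.0 TPM in CuO_TTM lungs, 15.8, 232 and 158 TPM in CuO lungs, and 47.03, 37.9 and 129 TPM in control lungs. For Isg15, CuO_TTM replicate 1 exceeded replicate 3 by 25.4 times, against 6.53 times within the CuO group and 5.93 times within controls. Its difference of CuO minus control, 1.31 on the log2 scale (95% interval -1.38 to 4.00, limma adjusted p = 0.941), was the largest of the 47 genes in that comparison. Its difference of CuO_TTM minus CuO was -1.81 (-4.50 to 0.88, adjusted p = 0.857), the lowest of the 47.

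The OAS enzymes make, on binding viral RNA, the oligoadenylates that switch on RNase L, and Oasl1 and Oasl2 are related proteins. Oasl2 stood at 344, 51.3 and 39.5 TPM in CuO_TTM lungs, 33.4, 319 and 370 TPM in CuO lungs, and 105, 98.5 and 285 TPM in control lungs. Oas1a stood at 191, 28.8 and 22.3 TPM in CuO_TTM lungs, 19.9, 193 and 150 TPM in CuO lungs, and 32.7, 31.5 and 81.2 TPM in control lungs. Oas2 stood at 28.1, 6.07 and 4.64 TPM in CuO_TTM lungs, 6.77, 36.0 and 38.3 TPM in CuO lungs, and 12.7, 17.1 and 17.6 TPM in control lungs. Oas2 had the narrowest control range of the family, 1.39 times, and the groups overlapped for all 3 genes. Oas1g ranged from 4.85 to 84.9 TPM, Oas3 from 2.12 to 69.3 TPM and Oasl1 from 1.24 to 83.8 TPM over all libraries. Oas1a and Oas1g share 57.6% and 54.7% of their 50-base stretches with other genes.

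The Mx genes encode dynamin-like antiviral GTPases, and the Mx1 allele of C57BL/6 mice gives no working protein. Mx1 stood at 56.7, 9.28 and 2.96 TPM in CuO_TTM lungs, 1.98, 112 and 21.9 TPM in CuO lungs, and 6.75, 4.38 and 22.8 TPM in control lungs. Mx2 stood at 20.2, 3.77 and 0.98 TPM in CuO_TTM lungs, 1.59, 46.6 and 20.7 TPM in CuO lungs, and 8.15, 6.58 and 14.5 TPM in control lungs. CuO replicate 2 was the highest of all 9 libraries for both genes.

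Among the other effectors Ifi27l2a, a small interferon-induced membrane protein, was the most abundant of the 47 genes. It stood at 4923, 677 and 363 TPM in CuO_TTM lungs, 552, 3032 and 3178 TPM in CuO lungs, and 1204, 1181 and 2504 TPM in control lungs. Bst2, the gene of tetherin, which holds budding virus particles at the cell surface, stood at 959, 257 and 204 TPM in CuO_TTM lungs, 312, 1063 and 921 TPM in CuO lungs, and 301, 308 and 645 TPM in control lungs. Rsad2, the gene of the antiviral enzyme viperin, had the widest range of all 47 genes, with 127, 8.14 and 5.99 TPM in CuO_TTM lungs, 2.04, 317 and 63.1 TPM in CuO lungs, and 17.7, 14.2 and 47.3 TPM in control lungs. Its CuO libraries thus differed by 155 times. Cmpk2, a nucleotide kinase gene next to Rsad2, differed by 15.5 times within the CuO group, Zbp1, a sensor of unusual nucleic acid structures, by 14.4 times, Trim30a by 25.4 times, Parp14, an ADP-ribosyltransferase, by 12.6 times and Ifi44 by 29.1 times. Smaller differences within the CuO group were found for Rtp4 (6.98 times), Samhd1, which depletes the nucleotides that viruses need (6.47 times), Xaf1, a promoter of cell death (2.90 times), and Ifi35 (2.10 times).

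Eif2ak2 encodes PKR, the kinase that halts translation on sensing viral RNA. It stood at 24.4, 18.3 and 16.6 TPM in CuO_TTM lungs, 18.7, 66.3 and 51.0 TPM in CuO lungs, and 23.2, 18.5 and 25.5 TPM in control lungs. CuO replicates 2 and 3 were above all other libraries, and CuO replicate 1 lay within the range of the other groups. CuO_TTM minus CuO was -0.999 on the log2 scale (95% interval -1.94 to -0.05, limma adjusted p = 0.590). With all mice it was the 1 gene of the 47 under 0.05 before adjustment. CuO minus control was 0.82 (-0.12 to 1.77, adjusted p = 0.694). Without CuO replicate 1, the lowest CuO library for this gene, CuO_TTM minus CuO was -1.53 ± 0.23 (SE, limma adjusted p = 0.0458). In that fit 56 of all 15487 genes passed. Eif2ak2 passed with no other library left out. Its spread between mice, an SD of 0.58, was the smallest of the 47 genes, and its share of variation lying between groups was the largest, at 46.0%.

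The GBP genes encode GTPases that coat and disrupt the vacuoles of intracellular pathogens. Gbp2 stood at 720, 139 and 109 TPM in CuO_TTM lungs, 14.7, 435 and 118 TPM in CuO lungs, and 70.4, 106 and 550 TPM in control lungs. Gbp6 stood at 178, 42.1 and 32.3 TPM in CuO_TTM lungs, 9.30, 185 and 93.8 TPM in CuO lungs, and 54.3, 59.3 and 204 TPM in control lungs, and it shares 90.2% of its 50-base stretches with the predicted gene Gm43302. Gbp4 stood at 129, 41.2 and 36.3 TPM in CuO_TTM lungs, 11.0, 123 and 48.5 TPM in CuO lungs, and 43.6, 57.5 and 136 TPM in control lungs. In these genes control replicate 3 was above CuO replicate 2, and CuO replicate 3 was below both. Gbp3 ranged from 16.1 to 223 TPM, Gbp5 from 5.83 to 130 TPM and Gbp7 from 8.65 to 101 TPM over all libraries, each lowest in CuO replicate 1.

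The IRG proteins act on the same vacuoles, Irgm1, Irgm2 and Igtp mainly as regulators and Iigp1, Tgtp1, Tgtp2 and Ifi47 mainly as effectors. Igtp stood at 499, 81.5 and 68.0 TPM in CuO_TTM lungs, 31.3, 261 and 122 TPM in CuO lungs, and 55.5, 80.7 and 522 TPM in control lungs. Irgm2 stood at 246, 66.8 and 62.5 TPM in CuO_TTM lungs, 18.0, 176 and 137 TPM in CuO lungs, and 61.0, 85.2 and 269 TPM in control lungs. Tgtp2 stood at 395, 70.1 and 54.1 TPM in CuO_TTM lungs, 28.6, 327 and 130 TPM in CuO lungs, and 84.8, 103 and 416 TPM in control lungs. Control replicate 3 was the highest of the 9 libraries for all 3 genes and CuO replicate 1 the lowest. Iigp1 ranged from 28.9 to 508 TPM, Irgm1 from 31.6 to 396 TPM, Ifi47 from 24.3 to 328 TPM and Tgtp1 from 9.73 to 360 TPM. Tgtp1 and Tgtp2 share 91.4% and 90.6% of their 50-base stretches with other genes, chiefly each other.

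**Figure D2:**
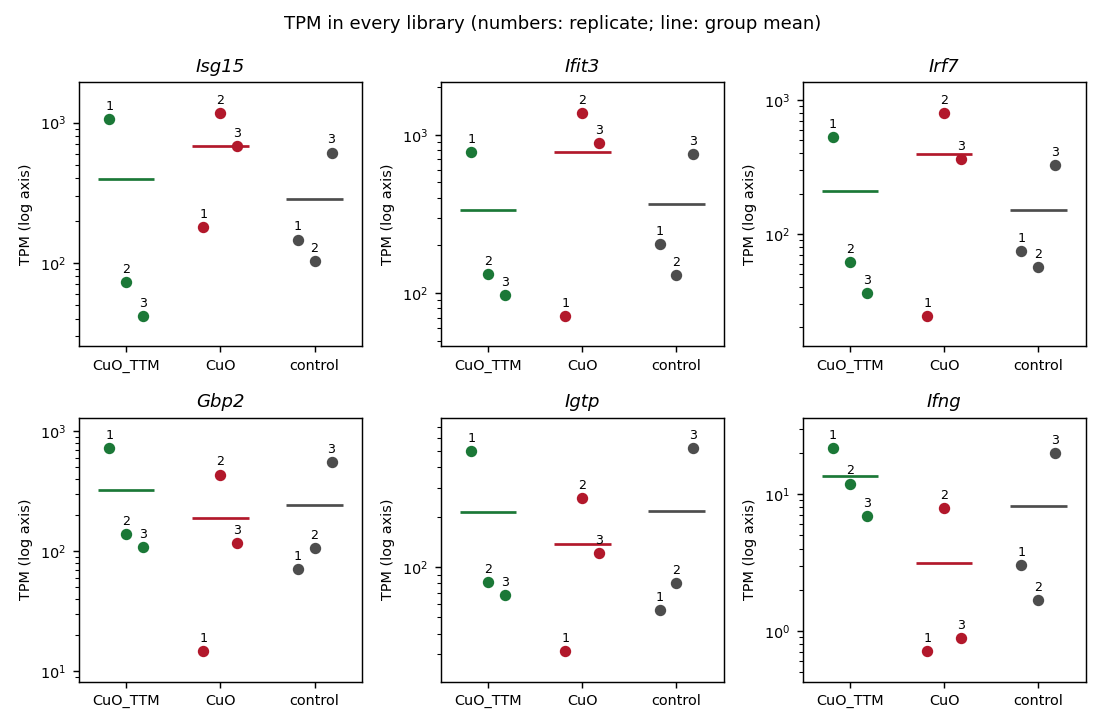
TPM on a log axis for Isg15, Ifit3, Irf7, Gbp2, Igtp and the interferon gamma gene Ifng, with each point a library numbered by its replicate and the line the arithmetic group mean. In each panel the points of the 3 groups interleave, as with Isg15, where CuO_TTM runs from 41.9 to 1065 TPM and control from 103 to 611 TPM.

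The antiviral families and the GTPase families parted in some libraries. The median deviation from the 9-library mean was taken over the 10 IFIT and OAS genes and over the 13 GBP and IRG genes. In CuO_TTM lungs it was 1.58, -1.16 and -1.62 for IFIT and OAS, and 1.41, -0.46 and -0.77 for GBP and IRG. In CuO lungs it was -1.96, 2.12 and 1.35 for IFIT and OAS, and -2.15, 1.45 and 0.13 for GBP and IRG. In control lungs it was -0.62, -0.84 and 0.96 for IFIT and OAS, and -0.80, -0.49 and 1.59 for GBP and IRG. GBP and IRG minus IFIT and OAS was lowest in CuO replicate 3, at -1.22, and highest in CuO_TTM replicate 3, at 0.85. In all 3 CuO libraries this difference was below 0 (-0.18, -0.68 and -1.22), and in controls it was -0.18, 0.35 and 0.63. These differences describe the libraries, since the genes of a family share their library, and no test was made over them.

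**Figure D3:**
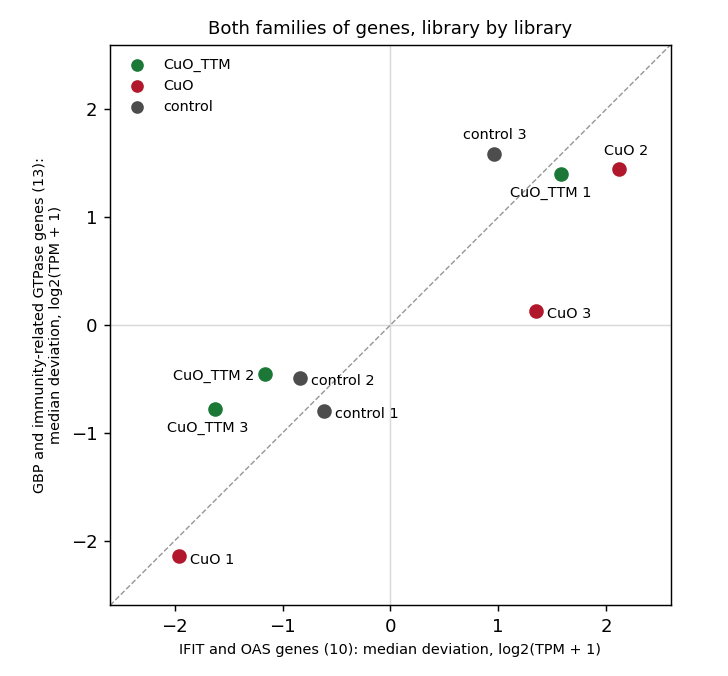
Each point is a library, with the median deviation in log2(TPM + 1) of 10 IFIT and OAS genes on the x axis and of 13 GBP and IRG genes on the y axis, and equal values on the dashed line. CuO replicates 2 and 3 lie below the line and control replicate 3 above it, and each group has libraries on both sides of 0 on the x axis.

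For CuO_TTM against CuO lungs, which asks what the addition of TTM did in mice given particles, the median difference of the 47 genes was -0.53 on the log2 scale, with 15 of 47 above 0, while the median of all tested genes was 0.19. Scaling the libraries by median ratios removed that shift of all genes (-0.02) and gave -0.72 for the 47 genes, with 9 above 0. The antiviral families lay on the lower side, with medians of -1.12 for IFIT, -1.34 for the ISG15 system, -0.78 for OAS, -0.91 for Mx and -0.46 for the RNA sensors. The GBP median was 0.33 (4 of 6 above 0) and the IRG median 0.29 (7 of 7 above 0), but both were near 0 after quantile normalization, at 0.01 and -0.01. Both signs also turned when 1 mouse was left out, with GBP at -0.74 (0 of 6 above 0) and IRG at -0.73 (0 of 7) without CuO replicate 1, and GBP at -0.31 (1 of 6) and IRG at -0.43 (0 of 7) without CuO_TTM replicate 1. Between these extremes were the transcription factors at -0.39 and the other effectors at -0.75. Intervals were wide, as for Gbp2 at 1.26 (95% interval -1.50 to 4.01, limma adjusted p = 0.879) and Ifit1 at -1.48 (-3.92 to 0.95, adjusted p = 0.858). The median of the 47 genes was -1.47 without CuO replicate 1, with 1 of 47 above 0, and 0.29 without CuO replicate 2, so its sign turned with 1 mouse. Without CuO replicate 1 the antiviral families lay lower still, at -2.54 for IFIT, -2.31 for the ISG15 system, -1.90 for OAS, -2.19 for Mx and -1.58 for the RNA sensors. Without CuO replicate 2 they were nearer to 0 or above it, at -0.22, -0.69, -0.22, 0.17 and 0.23 in the same order, with GBP at 1.15 and IRG at 1.03. The median of the 47 genes was -1.15 without CuO_TTM replicate 1 and -0.09 without CuO_TTM replicate 3. Before adjustment 13 of 47 genes were under 0.05 without CuO replicate 1, all lower in CuO_TTM, against 1524 of 15487 genes. Without CuO_TTM replicate 1 the count was 7 of 47, all lower in CuO_TTM, against 1085 of 15487.

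For CuO_TTM against control lungs, the median difference was -0.15, with 19 of 47 genes above 0, while the median of all tested genes was 0.24. Scaling by median ratios gave -0.42 for the 47 genes, with 5 above 0, and again removed the shift of all genes. Family medians ran from -0.51 for IFIT to 0.08 for IRG, and those of OAS (0.01), the RNA sensors (0.05) and IRG were below 0 under both scalings tried. Ifi44 had the lowest value, -1.03 (adjusted p = 0.708), and Samhd1 the highest, 0.55 (adjusted p = 0.734). The median of the 47 genes was -0.84 without CuO_TTM replicate 1 and 0.27 without control replicate 3.

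For CuO against control lungs, which asks what the particles did, the median difference was 0.36, with 31 of 47 genes above 0, while the median of all tested genes was 0.03. Medians were 0.61 for IFIT (4 of 4 above 0), 0.88 for the ISG15 system, 0.54 for OAS (6 of 6), 0.71 for Mx, 0.42 for the RNA sensors, 0.15 for the transcription factors and 0.36 for the other effectors. The GBP median was -0.60 (0 of 6 above 0) and the IRG median -0.32 (1 of 7). Gbp2 differed by -0.79 (95% interval -3.55 to 1.97, limma adjusted p = 0.992) and Oas1a by 0.92 (-1.26 to 3.11, adjusted p = 0.966). Without CuO replicate 1 the median of the 47 genes was 1.25, with 46 of 47 above 0, the GBP median 0.54 and the IRG median 0.73. The antiviral families lay higher too, at 2.05 for IFIT, 1.86 for the ISG15 system, 1.85 for OAS, 1.998 for Mx and 1.49 for the RNA sensors. Even then 0 of 47 genes passed, with a smallest adjusted p of 0.0647, while 35 of all genes passed. Before adjustment 8 of 47 were then under 0.05, all higher in CuO, against 3009 of 15487 genes. Without CuO replicate 2 the median was -0.43 and without CuO replicate 3 it was -0.08. Without CuO replicate 2 the IFIT median was -0.35 (0 of 4 above 0), that of OAS -0.14 (3 of 6), that of Mx -0.36 (0 of 2), that of the RNA sensors -0.10 (1 of 3) and that of the ISG15 system 0.23 (1 of 2), so 4 of these 5 families turned sign with that mouse. Without control replicate 3 it was 0.69, with 45 of 47 above 0, and the GBP median was 0.05. The 3 comparisons share libraries, so their values are not separate evidence.

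**Figure D4:**
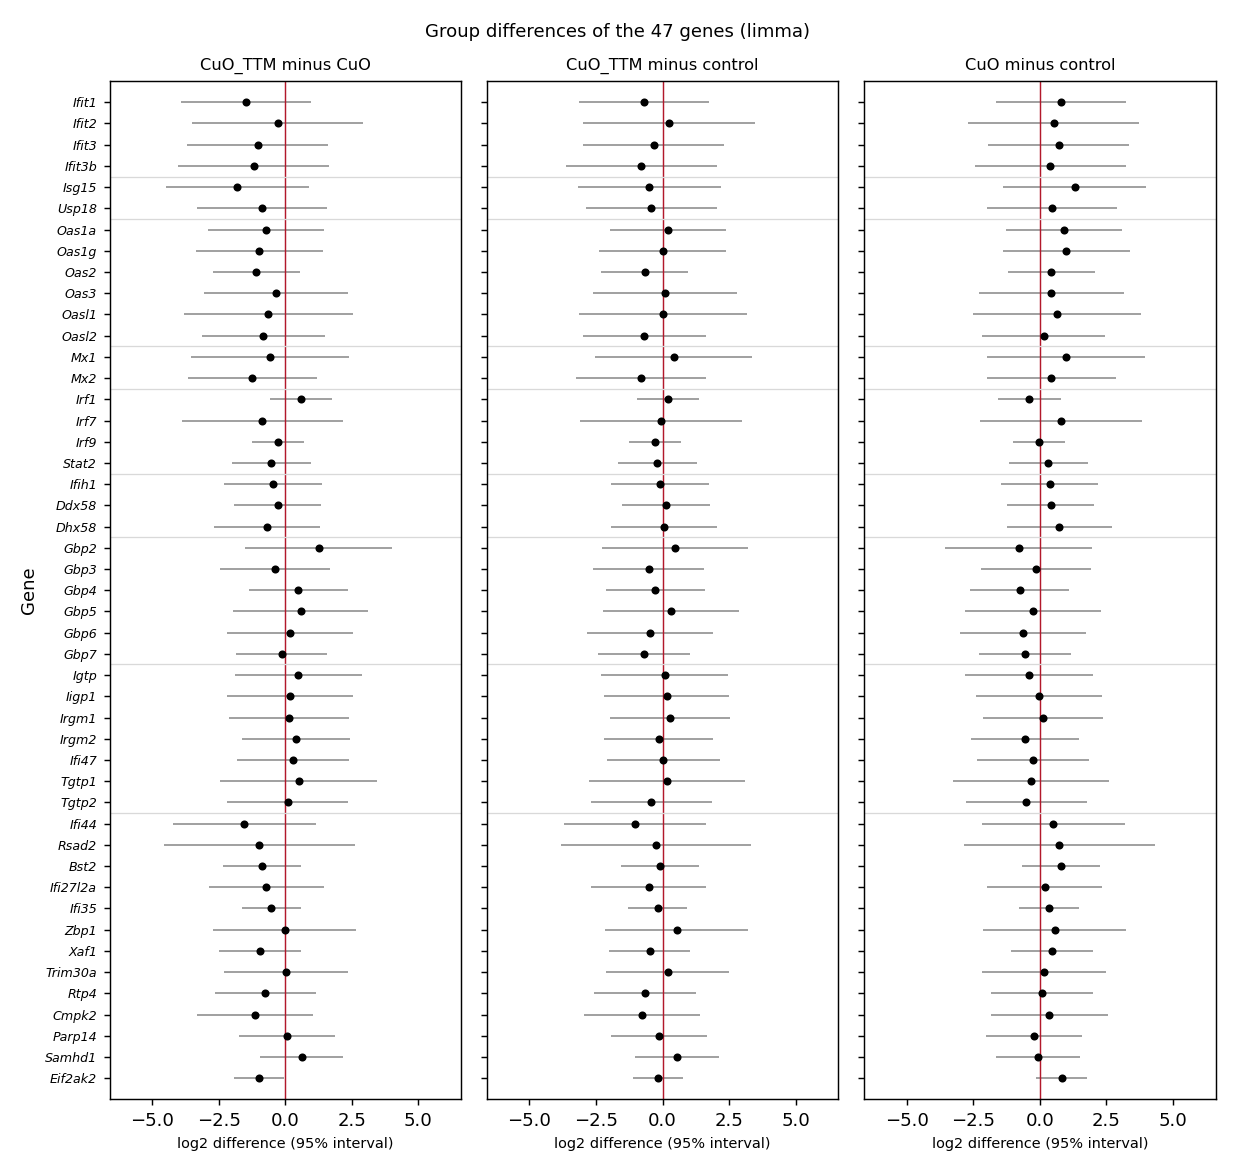
Points are log2 differences of the 47 genes from limma and lines their 95% intervals, for CuO_TTM minus CuO, CuO_TTM minus control and CuO minus control. All intervals include 0 but that of Eif2ak2 in CuO_TTM minus CuO, which ends at -0.05.

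The spread within groups was larger for these genes than for the table as a whole. Within a group, the highest library exceeded the lowest by a median of 6.69 times in CuO_TTM lungs, from 1.47 for Eif2ak2 to 25.9 for Oasl1. In CuO lungs the median was 11.96 times, from 2.10 for Ifi35 to 155 for Rsad2, and in control lungs 3.41 times, from 1.03 for Ddx58 to 10.2 for Tgtp1. Over all tested genes above 0 the medians were 1.55, 2.34 and 1.43 times in the same order of groups. The SD between mice of the same group, pooled over the groups on log2(TPM + 1), had a median of 1.53 over the 47 genes and 0.42 over all tested genes. For 43 of the 47 genes it was above 0.795, the 90th percentile of all tested genes, and the exceptions were Irf1, Irf9, Ifi35 and Eif2ak2. The median was also 0.42 over the 8826 tested genes in the abundance range of the 47. The share of a gene's variation that lay between groups had a median of 6.55% over the 47 genes and 26.7% over all tested genes. The spread was smaller without CuO replicate 1, an alternative chosen after seeing the data. Between CuO replicates 2 and 3 alone the higher library exceeded the lower by a median of 1.73 times over the 47 genes, from 1.01 for Ddx58 to 5.71 for Ifit2, and 5.014 times for Rsad2, against a median of 1.27 times over all tested genes above 0. Over the 8 other libraries the median SD between mice was 1.16 over the 47 genes and 0.29 over all tested genes, and 42 of the 47 lay above the 90th percentile of all, 0.636. The share of variation between groups was then a median of 35.7% over the 47 genes and 46.4% over all tested genes. After scaling by median ratios of all 9 libraries, CuO_TTM replicate 1 and control replicate 3 were still the highest of their groups for 47 of 47 genes, and CuO replicate 1 the lowest of its group for 46.

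**Figure D5:**
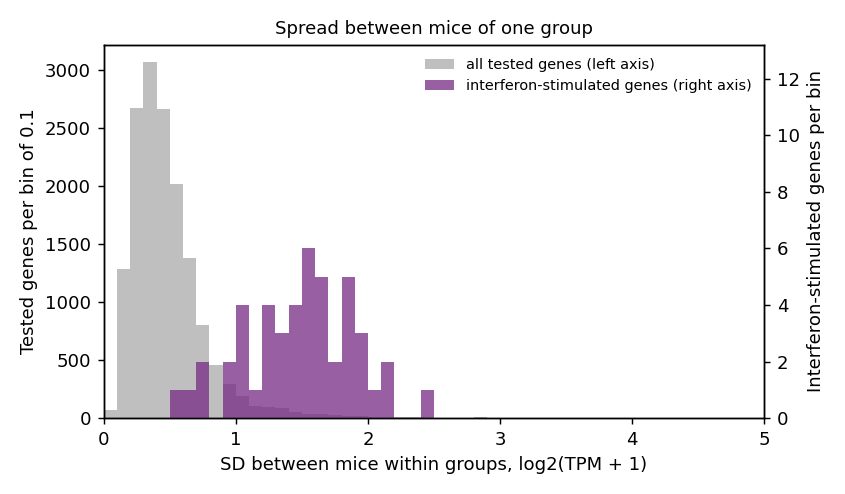
Histogram of the SD between mice of the same group, in log2(TPM + 1), for all 15487 tested genes (grey, left axis) and the 47 interferon-stimulated genes (purple, right axis). The purple bars, with a median of 1.53, lie mostly right of the grey ones, with a median of 0.42.

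Most other genes of lists induced by interferon had the same extreme libraries in their groups. These lists were chosen with earlier results of these data known, so their shared order is not separate support. Of 47 tested genes of a further antiviral list, CuO_TTM replicate 1 was the highest of its group for 44, CuO replicate 1 the lowest of its group for 47 and control replicate 3 the highest of its group for 46. Of 29 tested genes of a further interferon gamma list, the counts were 28, 22 and 29. The 22 of 29 are 75.9%, near the 70.9% of all tested genes for which CuO replicate 1 was lowest, while the backgrounds for the other places were 26.5% and 30.4%. In CuO_TTM lungs the exceptions were Ifitm1, Slfn9 and Pnpt1 of the first list and Icam1 of the second. None of the genes of either list passed the test in any comparison. In that antiviral list Slfn5, a member of the schlafen family, stood at 62.0, 36.6 and 39.4 TPM in CuO_TTM lungs, 52.7, 148 and 94.0 TPM in CuO lungs, and 75.3, 72.6 and 80.5 TPM in control lungs. CuO_TTM minus CuO was -0.997 (limma adjusted p = 0.447). Ifitm1, which blocks the entry of viruses, had the opposite sign, with 393, 456 and 309 TPM in CuO_TTM lungs, 54.2, 292 and 125 TPM in CuO lungs, and 161, 169 and 405 TPM in control lungs. Its difference of CuO_TTM minus CuO was 1.59 (adjusted p = 0.429). Slfn9, of the schlafen family too, stood at 5.89, 9.47 and 8.76 TPM in CuO_TTM lungs, 3.34, 26.7 and 11.4 TPM in CuO lungs, and 3.73, 2.21 and 5.98 TPM in control lungs. Tdrd7, an RNA granule protein, stood at 38.2, 22.4 and 25.5 TPM in CuO_TTM lungs, 35.9, 50.5 and 47.4 TPM in CuO lungs, and 26.2, 29.3 and 34.7 TPM in control lungs. For Tdrd7 the CuO values lay above those of controls, by 0.55 on the log2 scale (adjusted p = 0.668). Of the gamma list, Ciita, the switch of the genes of antigen presentation, stood at 20.1, 15.1 and 15.3 TPM in CuO_TTM lungs, 4.34, 9.55 and 11.97 TPM in CuO lungs, and 6.76, 10.9 and 14.9 TPM in control lungs. All 3 CuO_TTM values of Ciita were above the CuO values, and its difference was 0.97 (adjusted p = 0.517). Irf8, a factor of the myeloid lineage, stood at 81.9, 42.9 and 34.9 TPM in CuO_TTM lungs, 21.2, 38.1 and 30.7 TPM in CuO lungs, and 20.1, 26.1 and 33.9 TPM in control lungs. Icam1, an adhesion molecule for leukocytes, stood at 283, 298 and 371 TPM in CuO_TTM lungs, 253, 271 and 268 TPM in CuO lungs, and 172, 188 and 271 TPM in control lungs. Upp1, an enzyme of uridine breakdown, stood at 56.9, 31.9 and 33.5 TPM in CuO_TTM lungs, 34.3, 81.4 and 42.6 TPM in CuO lungs, and 22.2, 38.2 and 40.6 TPM in control lungs. The groups overlapped for Upp1, while for Icam1 all CuO_TTM values lay above all others. Of all tested genes, 11.8% had no overlap in CuO_TTM against CuO, 36.8% in CuO_TTM against control and 12.9% in CuO against control. The genes named from both lists were also picked for small p, which favours groups without overlap.

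Marker sums of some immune cell types, but not of others, were highest in the same libraries as the 47 genes. The 12 markers of monocytes and interstitial macrophages summed to 4157, 2048 and 1579 TPM in CuO_TTM lungs, 842, 3976 and 1701 TPM in CuO lungs, and 626, 920 and 1507 TPM in control lungs. This sum was highest in each group in the library that was also highest for most of the 47 genes, and Fcgr1, one of the markers, is itself induced by interferon. The 8 natural killer cell markers summed to 643, 326 and 179 TPM in CuO_TTM lungs, 30.2, 180 and 88.4 TPM in CuO lungs, and 182, 224 and 351 TPM in control lungs, with the same highest libraries. The 11 T cell markers summed to 970, 985 and 600 TPM in CuO_TTM lungs, 70.4, 192 and 74.0 TPM in CuO lungs, and 113, 130 and 154 TPM in control lungs. All 3 CuO_TTM values of the T cell sum lay above the other 6, which was so for none of the 47 genes. The 9 neutrophil markers summed to 434, 401 and 643 TPM in CuO_TTM lungs, 951, 1589 and 719 TPM in CuO lungs, and 1001, 2655 and 5060 TPM in control lungs. The 10 alveolar macrophage markers summed to 245, 986 and 1960 TPM in CuO_TTM lungs, 274, 443 and 1212 TPM in CuO lungs, and 523, 1513 and 1064 TPM in control lungs. The 8 B and plasma cell markers summed to 5079, 4487 and 2859 TPM in CuO_TTM lungs, 687, 495 and 955 TPM in CuO lungs, and 487, 431 and 417 TPM in control lungs. Neither sum had the highest libraries of the 47 genes in all groups. For plasmacytoid dendritic cells, known as producers of type I interferon, the 7 markers other than Bst2 summed to between 69.8 and 111 TPM in all libraries. Airway epithelium also set CuO_TTM replicate 1 apart. The 6 club cell markers summed to 83990, 2412 and 4320 TPM in CuO_TTM lungs, 125700, 74280 and 110400 TPM in CuO lungs, and 233300, 191700 and 176100 TPM in control lungs. Scgb1a1 alone took 8.17%, 0.180% and 0.353% of all TPM in the CuO_TTM lungs. The 7 ciliated cell markers summed to 324, 138 and 163 TPM in CuO_TTM lungs, 393, 383 and 522 TPM in CuO lungs, and 761.8, 586 and 387 TPM in control lungs. No marker of these lists was at 0 in any library. The part of these cells in the spread of the 47 genes was not tested.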

How the data were processed

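RNA of 9 mouse lungs was measured, 3 mice per group. Per the labels' protocols, libraries were made from poly(A)-selected RNA with a stranded kit and read in pairs. The authors deposited a table of TPM for 57010 Ensembl gene identifiers, and the submitters' processing notes name fastp, HISAT2, RSEM and DESeq2 and the build GRCm39. Versions, and the step each tool served, are not stated. TPM sum to the same total in every library and keep no depth, so no counting error can be given.

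Symbols were matched to 52029 identifiers. The members and lists were chosen with earlier results of these data known. Values were taken as log2(TPM + 1), so that fold changes of low genes are understated. The filter kept the 15487 genes that reached 1 TPM in 3 or more libraries. Group means were fitted to all 9 libraries with limma 3.58.1 in R 4.3.3, using a trended empirical Bayes step. Adjustment over all genes followed Benjamini and Hochberg. p-values set each group difference against the spread between mice within groups, as moderated by the empirical Bayes step. Values in every library are given for genes called in any comparison, for the 2 most abundant genes of each family and the gene of smallest p in CuO against control and in CuO_TTM against CuO, for the 2 genes of smallest p of the other lists named and for interferon genes and their receptors. Rsad2, Gbp2 in the group comparisons and the further genes given beside a result were chosen after their values were seen. Promoters come from RefSeq (GRCm38.p6), another build than that of the table, and were matched by symbol. The 50-base stretches shared between genes were counted in GENCODE M21 transcripts.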

Additional observations from a re-analysis of the deposited data

How the results depend on the processing

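No call of the 47 genes depended on normalization, pseudocount, filter, variance model or the fit of 2 groups alone: the count was 0 in every comparison under each. Leaving out 1 library at a time gave 0 to 1 in CuO_TTM against CuO, the 1 being Eif2ak2 without CuO replicate 1, and 0 in both other comparisons. Over these left-out libraries the median difference of the 47 genes ran from -1.47 to 0.29 in CuO_TTM against CuO. It ran from -0.84 to 0.27 in CuO_TTM against control and from -0.43 to 1.25 in CuO against control. Its sign thus turned in every comparison. Each value lay within 1 SD between libraries (1.44) of that with all mice. Leaving out 1 of 3 libraries can hardly move a mean further, so this says nothing of stability. Changes of sign were counted over the 24 of the 47 genes whose values were given by rule, which leaves out Rsad2. The sign of an uncalled difference turned in 22, 53 and 30 of 432 values per comparison in the same order. These shares understate the dependence. The filter, the variance model, the fit of 2 groups alone, the replicate block and a left-out mouse of the third group cannot change a difference. By gene, the sign turned under some setting for 11, 18 and 18 of the 24. With all mice no gene was called, so there was no call to reverse. Counts over all genes moved more. In CuO_TTM against CuO 110 genes passed, against 41 with a pseudocount of 0.1, 30 without the filter, 67 with a mean of at least 5 TPM, 0 with the 2 groups fitted alone and 1 to 148 with a library left out. In CuO_TTM against control 294 passed, against 183 with the smaller pseudocount, 56 without the filter, 1378 with the 2 groups alone and 3 to 1660 with a library left out. In CuO against control 0 passed (1231 at an unadjusted p under 0.05), against 7 after median-ratio scaling, 3 without the filter and 0 to 35 with a library left out. The cause of these moves was not tested. With the replicate number as a block, 0 of the 47 genes passed in each comparison, and 81, 113 and 3 of all genes passed in the order above. Same-numbered libraries correlated in their deviations from the group means at -0.37 to 0.29, so the numbers were not taken to pair the mice. Depth is unknown, and 3 mice per group limit every comparison.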

Other observations

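Genes that sense nucleic acid upstream of interferon were listed apart from the 47. None of the 15 tested genes passed limma's test in any comparison, where 0.710%, 1.90% and 0% of all genes passed in CuO_TTM against CuO, CuO_TTM against control and CuO against control. Their median differences were 0.38, 0.61 and 0.32 on the log2 scale in that order, while the medians of all tested genes were 0.19, 0.24 and 0.03. Sting1, the adaptor of the DNA sensing pathway, stood at 109, 57.7 and 57.4 TPM in CuO_TTM lungs, 20.0, 55.3 and 30.2 TPM in CuO lungs, and 12.9, 19.5 and 41.6 TPM in control lungs. All CuO_TTM values of Sting1 were above all others, and CuO_TTM minus control was 1.65 (adjusted p = 0.126). Groups without overlap were found for 36.8% of all tested genes in CuO_TTM against control and 11.8% in CuO_TTM against CuO. The sensing genes given here were also picked for small p, which favours such groups. Aim2, an inflammasome sensor of DNA, stood at 23.5, 24.5 and 17.1 TPM in CuO_TTM lungs, 2.87, 24.7 and 9.12 TPM in CuO lungs, and 8.13, 5.85 and 12.1 TPM in control lungs. CuO replicate 2 reached the level of the CuO_TTM lungs for Aim2. Ikbke, a kinase that activates interferon regulatory factors, stood at 11.3, 8.08 and 8.44 TPM in CuO_TTM lungs, 2.47, 12.8 and 7.10 TPM in CuO lungs, and 2.99, 3.8 and 3.3 TPM in control lungs. Its CuO_TTM values lay above its control values, against the same background of 36.8%. Trex1, which degrades stray DNA, stood at 89.7, 17.7 and 14.9 TPM in CuO_TTM lungs, 19.5, 64.6 and 33.5 TPM in CuO lungs, and 12.4, 12.8 and 40.1 TPM in control lungs. Its highest library in each group was also the highest for most of the 47 genes. Its lowest of the 9 libraries was control replicate 1, which was lowest for 0 of the 47.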
